A study of Mus with 12 samples.

Results

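The strongest m6A regions shared by all livers were examined, that is, stretches of transcripts that carried a peak in every one of 6 mouse livers with a fold enrichment of at least 20 each time. Peaks of the 6 lists were joined where they overlapped by at least 1 base, which gave 18374 regions. A peak from all 6 lists was present in 6245 of them, and 528 of these 6245 regions had a highest fold enrichment of at least 20 in every list. These 528 strong regions were 2.87% of all regions and 8.45% of the regions found in all 6 livers. They lay in 411 genes, while 3237 further genes had a region in all 6 livers but no strong one. Fold enrichment compares a peak's signal in the immunoprecipitate with that in the input, as given by the peak caller of the authors. The strong regions were chosen by this value in all 6 livers, so their level is described without a test.

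Livers of male C57BL/6J mice were profiled by MeRIP-seq, in which an antibody against m6A enriches methylated fragments of mRNA that are then sequenced beside an input. The HFD group (3 mice) received a high-fat diet with 60% of the energy from fat for 12 weeks from 6 weeks of age, and the WT group (3 mice) received a low-fat diet with 10% of the energy from fat and 35% sucrose over the same time. All mice also received chloral hydrate before they were killed, and no genetic change is given for either group. The labels of all 12 samples give the high-fat diet, so the groups were taken from the titles, and the peak lists of the 6 immunoprecipitates were used.

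m6A is a methyl mark on internal adenosines of mRNA. It is written by the METTL3 and METTL14 complex with its partners such as WTAP, VIRMA and ZC3H13, can be removed by FTO and ALKBH5, and is read by YTH domain proteins that act on splicing, export, translation and decay. Since a fold enrichment is set against the input, it speaks for the marked share of a transcript more than for its amount, but a peak can be found only in a transcript that is expressed and sequenced deeply enough. In whole liver, fewer cells of a type and less of an RNA per cell cannot be told apart.

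The lists held 10288 to 12898 peaks in HFD livers and 10109 to 12966 peaks in WT livers, of which 898 to 1469 and 977 to 1398 had a fold enrichment of at least 20. Read depth is unknown, since the lists hold no read counts. Of 10 hepatocyte markers only 2 or 3 had a peak in any liver, and none had a region in all 6, so the tissue label could not be checked by defining markers in lists that record methylation and not expression. Of 10 skeletal muscle markers, 1 carried a peak in each HFD liver and in WT 1, while 8 did so in both WT 2 and WT 3. Of 4 lymphocyte markers, 2, 2 and 1 carried a peak in HFD livers and 0 in each WT liver. The part of either in the values below was not tested. No muscle, lymphocyte, adipocyte or pancreatic marker had a region in all 6 livers, and the only strong region in a cell type marker was in Pdgfrb, a receptor of stellate cells and other mesenchymal cells. It had fold enrichments of 46.8, 33.5 and 32.6 in HFD livers and 48.5, 30.4 and 47.2 in WT livers.

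Strong regions formed the upper tail of a continuous distribution. The geometric mean of fold enrichment over the 6 livers had a median of 37.3 in the strong regions (22.2 to 503.1) and of 9.64 in the other regions found in all 6 livers. It reached 50 in 136 strong regions, 100 in 23 and 200 in 5. Of the 6245 regions, 4386 reached 20 in no liver, 495 in 1, 304 in 2, 208 in 3, 162 in 4, 162 in 5 and 528 in all 6. The count thus was lowest at 4 and 5 livers and higher at 6. The regions just inside the limit had lowest values of 20.01 in Rfxap and Prkce, 20.02 in Net1, 20.04 in Golim4 and 20.06 in Ptma and Chmp3. Those just outside had lowest values of 19.98 in Ppp1r7, Isy1 and Lrrc59, 19.94 in Map7d1, 19.87 in R3hdm2 and 19.82 in Tceal8. HFD 3 set the limit most often: it gave the lowest of the 6 values in 159 strong regions, and it alone kept out 61 of the 162 regions that reached 20 in the other 5 livers.

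**Figure D1:**
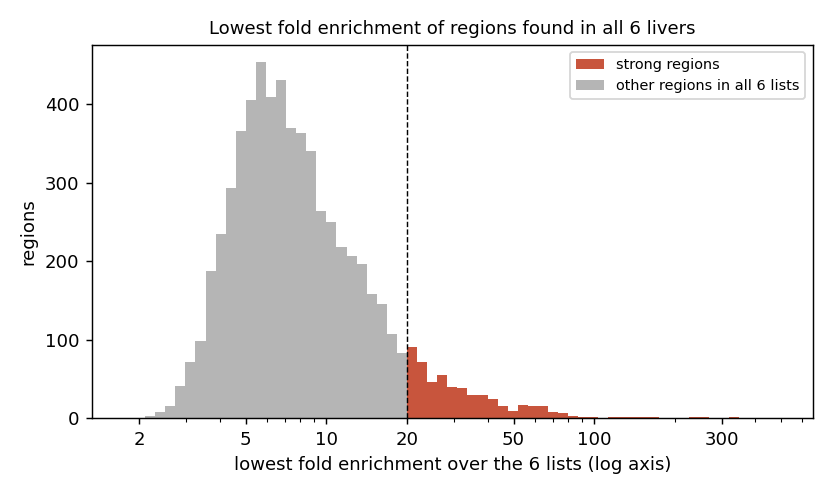
Number of regions (vertical axis) by their lowest fold enrichment over the 6 lists (horizontal, log axis), for the 528 strong regions and the 5717 other regions found in all 6 livers. The dashed line marks the limit of 20, and the counts fall smoothly through it with no gap.

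The 20 strongest regions lay in genes of many kinds, among which were proteins that handle RNA. Leading them was a region at chr6:79818031-79818364 (build GRCm38) in Gm20594, a predicted gene of 334 bases that the region covers as a whole. It had fold enrichments of 288, 289 and 1091 in HFD livers and 834, 828 and 259 in WT livers. Uros, the uroporphyrinogen III synthase of heme synthesis, came next at chr7:133708924-133709295 with 544, 339 and 478 in HFD livers and 440, 466 and 488 in WT livers. The 2 differed in evenness, since the highest value was 4.21 times the lowest in Gm20594 and 1.61 times in Uros.

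Anp32b, a histone chaperone of the acidic leucine-rich nuclear phosphoproteins, had 233, 345 and 330 in HFD livers and 338, 366 and 319 in WT livers at chr4:46469883-46470049. Supt5, a subunit of the DSIF elongation factor of RNA polymerase II, held 2 of the 20 regions. Its region at chr7:28331370-28331529 had 162, 303 and 194 in HFD livers and 193, 276 and 176 in WT livers. Its region at chr7:28338352-28338706 had 225, 208 and 144 in HFD livers and 148, 166 and 264 in WT livers. The groups overlapped in both, and different livers were highest. No other region of Supt5 was found in all 6 livers.

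Cald1, the actin-binding protein caldesmon, had 163, 142 and 151 in HFD livers and 149, 192 and 124 in WT livers. Hnrnpm, a regulator of splicing, had 207, 136 and 117 in HFD livers and 88.8, 115 and 176 in WT livers, in a region that the lists give to March2 as well. Eif3j2, a translation initiation factor 3 subunit with the near-identical copy Eif3j1, was the most even of the 20, with 119, 118 and 137 in HFD livers and 132, 137 and 126 in WT livers, a ratio of 1.16. Further regions among the 20 were in Nrd1 (the protease nardilysin), Fam32a, Myo6 (myosin VI), Las1l (ribosome biogenesis), Fkbp5 (a co-chaperone of the glucocorticoid receptor) and Top1 (DNA topoisomerase I), with geometric means of 103 to 131. As deposited, the HFD and WT values stood apart in Nrd1, with 123, 115 and 119 in HFD livers and 161, 140 and 134 in WT livers. After the median of each library had been taken off, they overlapped in all 20.

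In 8 of the 20 strongest regions the same 3 livers were highest, HFD 3, WT 1 and WT 2, and HFD 1, HFD 2 and WT 3 were lowest. Besides Gm20594 and the even Eif3j2 these were in Rsph3a and Rsph3b (2 radial spoke protein genes), Lars2 (mitochondrial leucyl-tRNA synthetase), Tia1 (an RNA-binding protein of stress granules), Fcgr3 (a low-affinity receptor for IgG) and Spcs2 (a subunit of signal peptidase). Rsph3a had 156, 172 and 458 in HFD livers and 512, 366 and 147 in WT livers. Rsph3b had 53.6, 65.4 and 199 in HFD livers and 170, 188 and 68.5 in WT livers. Both regions were 88 bases long. Since the 2 genes are paralogs, reads that fit both may have been divided or shared, and their values are uncertain. Whether reads at other regions, Gm20594 and Lars2 among them, fit more than 1 place in the genome was not tested. Lars2 had 103, 153 and 253 in HFD livers and 321, 234 and 76.9 in WT livers. This pattern crossed the diets, as 1 HFD liver was high and 1 WT liver was low each time.

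**Figure D2:**
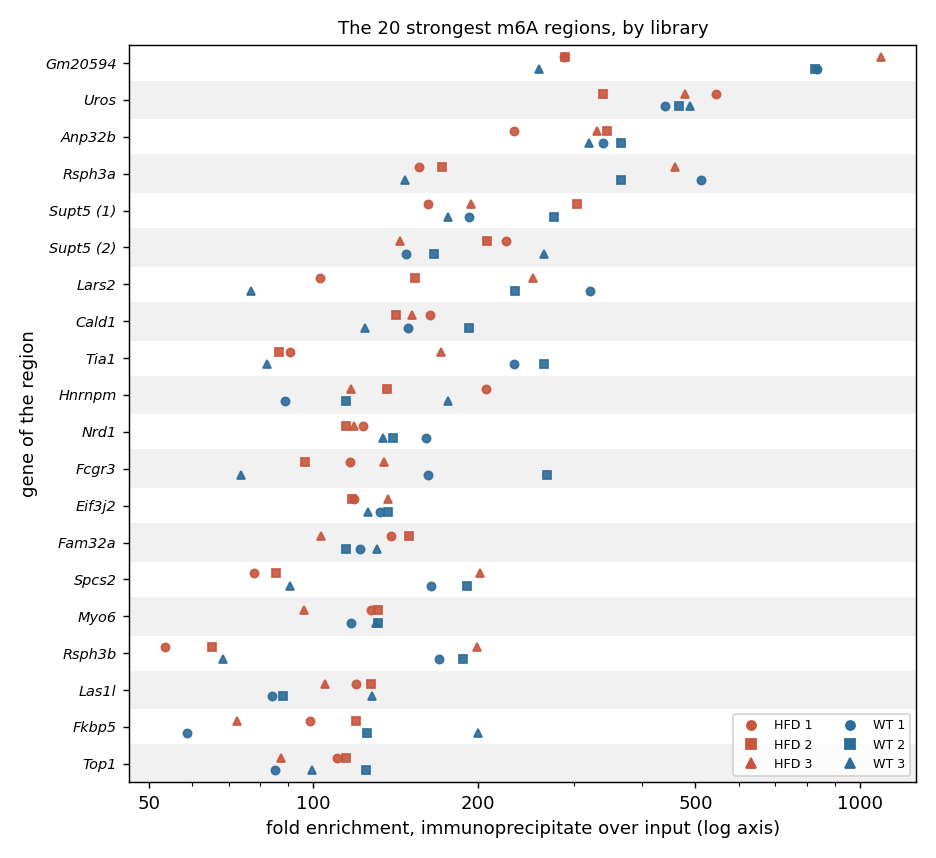
Fold enrichment (horizontal, log axis) of the 20 strongest regions, named by gene, with 1 point for each liver and HFD livers above WT livers in every row. Values of Uros lie between 339 and 544 in all livers, while those of Gm20594 and Rsph3a fall into a high and a low set of 3 livers, each holding both diets.

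Over all strong regions, values were moderately even among livers. The ratio of the highest to the lowest value had a median of 1.66 (1.12 to 9.30), against 1.92 in the other regions found in all 6 livers, where a lower level leaves the ratio free of the limit. On values centred on the median of their library, the SD over 6 livers on the log2 scale was 0.27 at the median for strong regions and 0.33 for the others. A low value in any liver kept a region out of the strong set, so nothing is read from the smaller SD. The smallest spreads were in Ptma (prothymosin alpha), Smarcc2 and Tada2b (subunits of chromatin complexes), Rdx (radixin, a linker of membrane and actin), Camk2n1 (an inhibitor of CaM kinase II) and Hif1a (the oxygen-regulated transcription factor). Smarcc2 had 50.4, 43.7 and 42.9 in HFD livers and 44.0, 39.8 and 53.3 in WT livers. Hif1a had 29.6, 24.2 and 20.6 in HFD livers and 23.2, 21.1 and 29.2 in WT livers. The largest spreads were in Gm20594, Gm10800, Rsph3b, Rsph3a, Lars2 and Tia1. Gm10800 had 28.7, 71.2 and 63.6 in HFD livers and 74.8, 76.2 and 267.0 in WT livers, so that WT 3 alone stood far above the rest.

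Some genes held several strong regions. One strong region was present in 332 genes, 2 in 54, 3 in 17, 4 in 5, 5 in 2 and 7 in 1, so that 79 genes held 196 of the 528. Cgnl1, which encodes the junction protein paracingulin, had the most, 7 of its 13 regions found in all 6 livers, with geometric means of 25.4 to 46.5. Eif3a, the largest subunit of translation initiation factor 3, had 5 of 6 regions (36.3 to 82.1). St13, a cochaperone of Hsc70, had 5 of 9 (26.2 to 97.9). Genes with 4 were Cald1 (32.9 to 152), Cdk11b (30.1 to 87.0), Eif5b (30.2 to 101), Nucks1 (29.8 to 33.5) and Smarca2 (34.4 to 54.1). Regions of a gene thus could have unequal levels, as also in Anp32b (30.1 to 319 at 3 strong regions). Every region found in all 6 livers was strong in some of these genes, as in Supt5, Anp32b, Anp32a, Atp6v1e1, Rsbn1l, Tmco1, Ddx21, Chd3 and Myo6.

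The m6A pathway itself held strong regions, in a list of genes chosen with earlier results of these data known. Of its 29 genes that were looked for, 14 had 33 regions found in all 6 livers, and 10 of these regions (30.3%, against 8.45% of all) in 4 genes were strong. Among these genes were partners of the methyltransferase. The gene listed as 1110037F02Rik, which encodes the scaffold VIRMA, had 106, 130 and 108 in HFD livers and 73.0, 125 and 67.6 in WT livers. Zc3h13, which anchors the complex in the nucleus, had 78.2, 79.2 and 66.1 in HFD livers and 59.8, 63.3 and 78.5 in WT livers. Both regions had the same first and last base in all 6 lists, and their groups overlapped.

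The reader Ythdc1, the nuclear YTH protein, had 3 strong regions of its 4. The highest, at chr5:86835684-86836485, had 63.4, 67.7 and 91.8 in HFD livers and 81.0, 109 and 66.9 in WT livers. The other strong regions of the list were the 5 in Eif3a, whose protein takes part in translation that is promoted by m6A. The highest of them had 66.3, 89.1 and 81.7 in HFD livers and 79.1, 82.9 and 96.7 in WT livers. Ythdc1 and Eif3a thus held 8 of the 10 strong regions of the list, and 10 of the 14 genes had none.

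Lists of metabolic genes held no strong region. There was none among 4 regions of fatty acid and triglyceride synthesis and lipid droplets (highest geometric mean 11.5, in G0s2), 10 of fatty acid oxidation (14.2, in Abcd3), 12 of cholesterol and bile acids (24.1, in Soat2) and 22 of insulin and mTOR signaling (19.5, in Pik3ca). At the share of 8.45% these lists would hold few in any case, so the counts say little about any one of them. Metabolic genes outside the lists did have strong regions, such as Uros and, named after its values were seen, Fabp1, the liver fatty acid-binding protein. Fabp1 had 63.1, 104 and 38.9 in HFD livers and 37.0, 36.9 and 54.3 in WT livers, with overlapping groups. The circadian clock had none of 5, and immediate early genes with dual-specificity phosphatases had none of 17. Among 22 regions of liver-enriched transcription factors and nuclear receptors, the only strong one was in Nr2f2 (COUP-TFII), with 38.5, 36.3 and 27.3 in HFD livers and 39.0, 42.6 and 34.9 in WT livers. Wnt, Notch, Hippo, TGF-beta and Hedgehog genes had 3 of 43, in Tcf7l2 and Skil. Histone lysine methylation and Polycomb genes had 2 of 83 (2.41%), 1 of them in the H3K4 demethylase Kdm5a with a geometric mean of 55.1.

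Large gene families also had low to middling shares. Zinc finger genes named Zfp had 5 strong regions of 120 (4.17%), solute carriers had 3 of 56 (5.36%), and genes named Rnf, Trim, Fbx or Klhl had 5 of 70 (7.14%). The leading ones were Slc35b2, a carrier of the sulfate donor PAPS into the Golgi, with a geometric mean of 74.8, Trim44 with 82.8, and Zfp106 with 68.0. Families chosen after their values were seen had higher shares. Anp32a, Anp32b and Anp32e had 7 of 9 regions. The Tnrc6 genes, scaffolds of microRNA silencing, had 5 of 14 (35.7%), with the highest geometric mean of 90.6 in Tnrc6b. Eif genes had 12 of 52 (23.1%), Hnrnp genes 6 of 25 (24.0%), Ddx and Dhx helicases 12 of 61 (19.7%) and Smarc chromatin remodelers 8 of 36 (22.2%). Genes of liver interest with 2 strong regions each were F10 (coagulation factor X), Pde3b (a phosphodiesterase of insulin action) and Ppargc1b (a coactivator of mitochondrial genes), with geometric means of 27.5 to 48.7.

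Shares of the annotation carried in the lists differed between genes with a strong region and the 3237 others, by counts alone and with no test. The terms described here were chosen after their values were seen. Poly(A) RNA binding was given to 111 of 411 genes with a strong region (27.0%) and to 362 others (11.2%). Split at the median length, it was 34.1% against 17.5% for short regions and 23.0% against 9.71% for long ones. The spliceosome pathway was given to 22 (5.35%) against 37 (1.14%), ATP-dependent RNA helicase activity to 11 against 26, and mRNA surveillance to 10 against 24. Nuclear proteins were 54.3% against 41.3%. In contrast, metabolic pathways were given to 8 genes with a strong region (1.95%) and to 176 others (5.44%). The 8 were Uros, Man1a2, Twistnb, Pole3, Atp6v1e1, Cyp2a12, Dnmt3a and Polr1a. Integral membrane proteins were 8.03% against 16.2%, transferases 3.89% against 9.02%, and mitochondrial proteins 6.08% against 9.51%. The expression of these genes was not measured here, and its part in these shares was not tested. A gene with more regions had more chances to hold a strong one, and this was not taken into account.

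**Figure D3:**
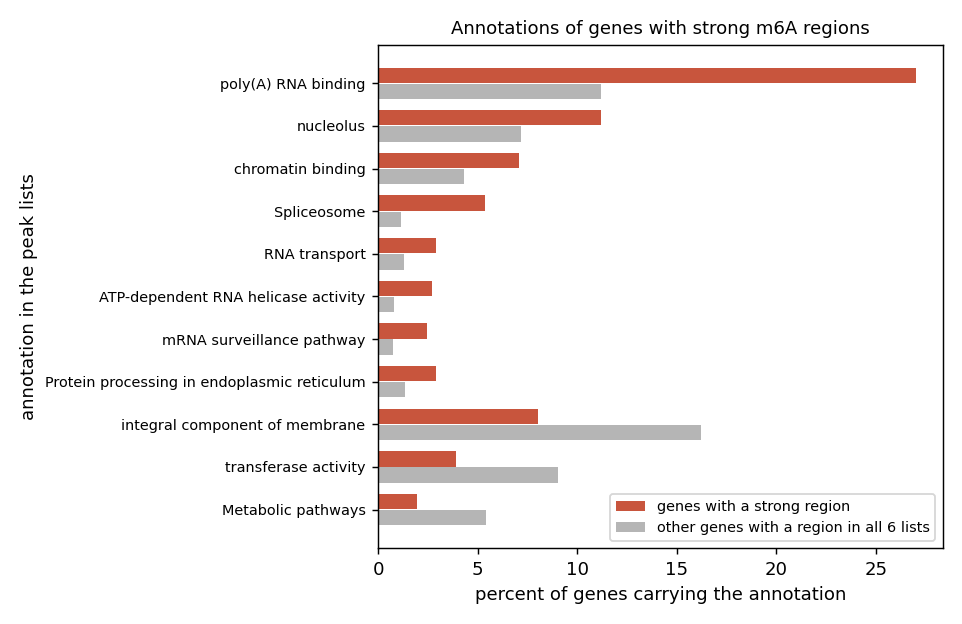
Percent of genes (horizontal axis) that carry each annotation of the peak lists, for the 411 genes with a strong region (upper bar of each pair) and the 3237 other genes with a region in all 6 livers. Poly(A) RNA binding stands at 27.0% against 11.2%, and metabolic pathways at 1.95% against 5.44%.

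Some RNA-handling genes with strong regions are given here as examples, picked after their values were seen. Among spliceosome genes were Hnrnpm, with geometric means of 135, 82.1 and 33.1 at its 3 strong regions, the U5 helicase Snrnp200 (58.6), the U1 protein Snrnp70 (33.9), and the helicases Ddx46, Ddx23, Dhx38 and Dhx16 (22.5 to 48.3). The highest of these Hnrnpm regions is given to March2 as well. Snrnp70 had 44.1, 35.1 and 24.9 in HFD livers and 27.7, 35.3 and 40.5 in WT livers, with overlapping groups. Among genes of nonsense-mediated decay were Upf3a (62.0) and Upf2 (39.6). Among genes of translation initiation were Eif3j1 (88.1), Eif5b (30.2 to 101 at 4 regions) and Eif2s2 (28.6). Ncor1, a corepressor of nuclear receptors, had both of its strong regions among the higher ones. One had 72.5, 88.4 and 98.5 in HFD livers and 98.7, 116 and 81.6 in WT livers, and the other had 85.4, 70.8 and 64.6 in HFD livers and 68.6, 87.5 and 76.8 in WT livers. The groups overlapped in both.

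The extent of the regions was not used to choose them. Strong regions covered a median of 277 bases and the others 315. Of the regions that covered up to 147 bases, 7.21% were strong. The share was 10.9% from 148 to 311.5 bases, 9.55% from 312 to 955.5 bases and 6.21% from 956 bases on. The shortest strong regions were in Psmc1 (26 bases), Ccdc124 (32), Habp2 (37) and Kpna3 (45). The longest were in Ankrd11 (6518 bases), Nfib (6379), Maf (4829) and Igfbp5 (4282). Strong regions were therefore found at both ends of the range. First and last base were identical in all 6 lists in 379 strong regions (71.8%), against 62.7% of the others. How the bounds were set was not tested, so the covered length need not be the extent of the mark. Only 5 strong regions held more than 1 peak in a list. The highest p-value score in the lists was 3100, on the scale of minus 10 times its log10. It was reached in all 6 lists by 265 strong regions (50.2%) and 2.40% of the others, so it could not rank the strongest. The deposited FDR of strong regions had medians of 46.7%, 65.2% and 65.6% in HFD livers and 74.6%, 78.3% and 35.4% in WT livers. Of the 528, 519 overlapped their gene in the RefSeq annotation of GRCm38, and 33.1% of these lay within 1000 bases of a gene end, against 31.6% of the others. Exons, strand and sequence of the regions were not analysed here.

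Whether the diet changed the enrichment was tested by limma over all 6245 regions. The choice of strong regions had used the same values, though not the diet groups. After adjustment, no region passed (0% called, lowest adjusted p = 0.357), and thus 0 strong regions were called (lowest adjusted p = 0.767). At an unadjusted p under 0.05 there were 18 strong regions (3.41%), 17 lower and 1 higher in HFD, against a background of 4.87% of all regions. A region with a low value in either group could not be strong, so this share was in part set by the choice of regions, and nothing is read from it. The counts moved with single livers, in strong regions and in all. Without HFD 1 there were 9 higher and 8 lower strong regions (3.22%), against 159 and 162 of all (5.14%). Without HFD 3 there were 6 and 29 (6.63%), against 194 and 276 of all (7.53%). Without WT 2 there were 2 and 7 (1.70%), against 116 and 111 of all (3.63%). Leaving out HFD 2 gave 0 and 14 (2.65%), against 90 and 125 of all (3.44%). With WT 1 left out there were 1 and 13 (2.65%), against 137 and 139 of all (4.42%). With WT 3 left out there were 0 and 23 (4.36%), against 133 and 184 of all (5.08%). The difference between HFD and WT was under 0.5 on the log2 scale in 495 strong regions (93.8%, against 91.0% of all), with a median SE of 0.26. With 3 mice a group, differences of this size were within the spread between mice in most regions.

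The differences leaned to lower values in HFD by an amount that depended on scaling and on single livers. The median was -0.09 in strong regions, with 334 below 0 and 194 above, and -0.02 in all 6245. With the deposited values left uncentred the median was -0.05 in strong regions and 0.02 in all, and with quantile normalization it was -0.02 and -0.003. The median of the strong regions was -0.04 without HFD 1 and -0.06 without WT 2, against -0.01 and -0.02 in all. It was -0.09 without HFD 2, -0.10 without HFD 3, -0.07 without WT 1 and -0.10 without WT 3, against -0.02 in all each time. On the centred scale, all 3 HFD values were above all 3 WT values in 15 strong regions (2.84%, background 4.48%) and below them in 42 (7.95%, background 5.09%). Under quantile normalization there were 25 higher (4.73%) and 33 lower (6.25%) strong regions, against 4.98% and 4.64% of all regions. Without centring there were 16 higher (3.03%) and 35 lower (6.63%), against 4.64% and 3.68% of all. The counts of strong regions with no overlap thus moved with the scaling, as did those over all regions. They also moved with single livers. Without HFD 1 there were 55 higher (10.4%) and 65 lower (12.3%), against 10.4% and 10.7% of all. Without HFD 3 there were 37 higher (7.01%) and 97 lower (18.4%), against 10.9% and 12.9% of all. With HFD 2 or any WT liver left out, 4.17% to 9.09% were higher and 11.4% to 17.8% lower. The shares of all regions were then 7.69% to 8.53% and 8.90% to 10.8%. The same values had served to choose the strong regions, so nothing is read from these shares.

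**Figure D4:**
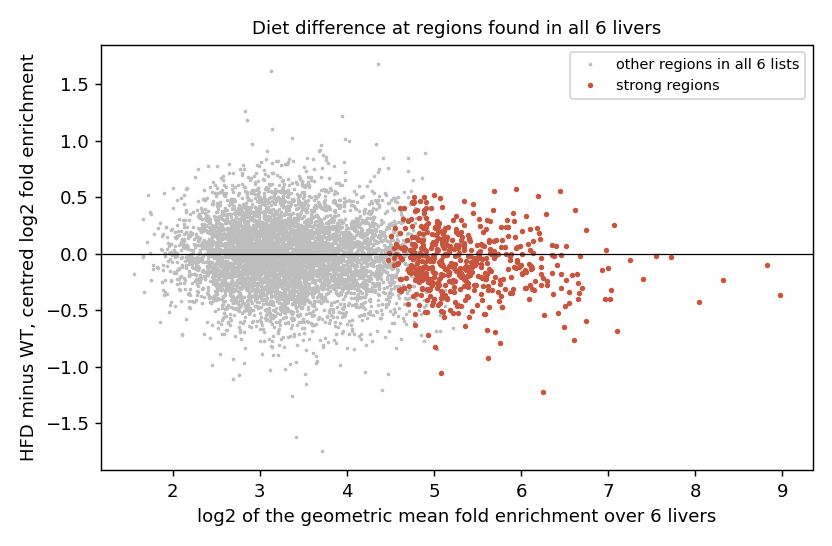
Difference between HFD and WT in centred log2 fold enrichment (vertical axis) against the log2 of the geometric mean over 6 livers (horizontal axis), 1 point for each of 528 strong and 5717 other regions found in all 6 livers. Most strong regions lie within 0.5 of 0, and none passed the adjusted test.

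St13 had the lowest unadjusted p among strong regions. At chr15:81388330-81388400 it had 21.5, 22.8 and 27.3 in HFD livers and 50.1, 50.3 and 43.8 in WT livers. The groups did not overlap, and the difference was -1.06 (95% interval -1.63 to -0.49, limma adjusted p = 0.767). Its region at chr15:81389651-81389723 had 81.3, 88.5 and 61.8 in HFD livers and 126, 113 and 139 in WT livers, a difference of -0.76 (adjusted p = 0.896). The 3 other strong regions of St13 had differences of -0.52, -0.16 and -0.02 with overlapping groups. The regions of a gene share the same transcripts and livers, and they are not separate evidence.

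Atp6v1e1, a subunit of the vacuolar proton pump, had strong regions on both sides. At chr6:120818334-120818399 it had 21.4, 22.7 and 30.9 in HFD livers and 49.9, 39.9 and 38.5 in WT livers (difference -0.83, 95% interval -1.41 to -0.25, adjusted p = 0.968). At chr6:120822588-120822685 it had 41.4, 47.0 and 34.1 in HFD livers and 24.7, 24.2 and 36.5 in WT livers (difference 0.49, adjusted p = 0.999). At the first of these regions the groups did not overlap. At the other they did not overlap on the centred scale, although HFD 3 was below WT 3 as deposited. The difference between the 2 regions was not tested.

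Smarca2, the BRM ATPase of the SWI/SNF chromatin remodelers, was lower in all HFD livers at 1 of its 4 strong regions, chr19:26751824-26752041. It had 43.7, 41.3 and 40.3 in HFD livers and 80.3, 84.8 and 50.7 in WT livers (difference -0.79, adjusted p = 0.968), and its other 3 regions had differences of 0.02, -0.19 and 0.29. Cdk11b, a kinase linked to transcription and splicing, had positive differences at its 4 strong regions, of 0.56, 0.45, 0.34 and 0.29 (adjusted p = 0.999 each). Its highest region had 91.8, 125 and 107 in HFD livers and 66.5, 66.5 and 79.7 in WT livers. None of these differences passed the test.

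**Figure D5:**
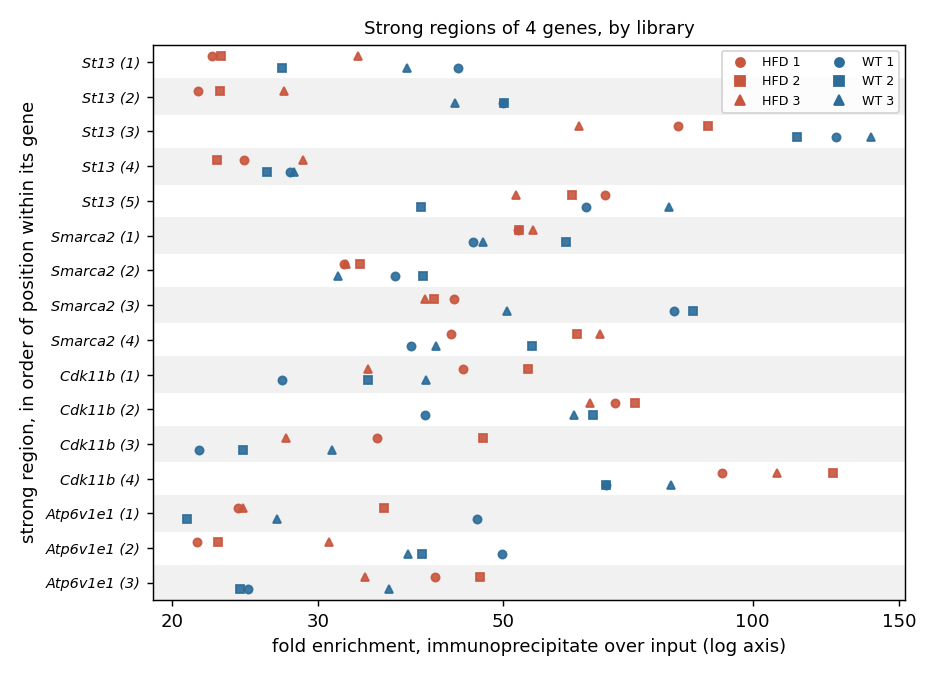
Fold enrichment (horizontal, log axis) at the strong regions of St13, Smarca2, Cdk11b and Atp6v1e1, numbered by position within the gene, with 1 point for each liver and HFD livers above WT livers in every row. HFD and WT livers stand apart at regions 2 and 3 of St13 and overlap at its regions 4 and 5.

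The other regions with the largest differences among those that did not overlap lay in both directions. Gm10800 had the lowest difference, -1.23 (limma adjusted p = 0.968), with WT 3 far above and HFD 1 far below the rest. Whether reads at Gm10800 fit more than 1 place in the genome was not tested. Gm17669 had 36.2, 28.0 and 47.0 in HFD livers and 52.1, 73.2 and 78.2 in WT livers (difference -0.93, adjusted p = 0.871). On the other side, Kpna1 (importin alpha) had 36.5, 32.2 and 38.2 in HFD livers and 20.3, 26.1 and 27.5 in WT livers, with a difference of 0.50. Ell2, an elongation factor of RNA polymerase II, and Golim4, a Golgi membrane protein, had differences of 0.45 and 0.40. All 3 had an adjusted p of 0.999.

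The length covered by peaks was compared between diets in the same way. Of all 6245 regions 3 were called (0.048%), and 0 strong regions were. The 3 called were in Pdia3, Bcl7b and Ctsh, named after their values were seen. At an unadjusted p under 0.05 there were 11 strong regions (2.08%), against a background of 1.79%. Since the bounds of 379 strong regions were identical in all livers, most could show no difference in length. Without WT 2, 13 of all 6245 regions were called, and 3 of them were strong, in Gm10053, Rsbn1l and Erp29. Erp29, a chaperone of the endoplasmic reticulum, had 1189, 1194 and 1135 covered bases in HFD livers and 855, 948 and 866 in WT livers.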

How the data were processed

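Liver MeRIP-seq peak lists of 3 HFD and 3 WT mice were used, 1 for each immunoprecipitate. The authors called peaks of each liver against its input from paired-end reads of 150 bases, and MACS2 2.1.0, Bowtie 1.1.2, Trimmomatic 0.33 and bcl2fastq 2.17 are listed in the submitters' processing notes. The notes name a human build, but the positions match mouse genes of RefSeq GRCm38. The deposited fold enrichment is a ratio of immunoprecipitate over input per peak, for which no scaling among libraries is stated. The deposited p-value score is minus 10 times its log10. The FDR was deposited as a percent, with values from 25 to 100, and was not used to choose or test regions. All deposited peaks had a fold enrichment of at least 2 and a score of at least 50. Read depth is unknown, so values carry no counting interval.

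Peaks were merged by overlap without regard to strand, and the highest fold enrichment of a list was kept for each region. The log2 value, less the median of its library over the 6245 regions, was fitted by limma 3.58.1 in R 4.3.3 (two-sided, Benjamini-Hochberg over all regions, called at an adjusted p under 0.05), with Python 3.11.15, pandas 2.3.3 and numpy 2.4.6 for the rest. Covered length was fitted likewise, and the fit was tested on simulated data. The libraries are separate mice by their labels. The strong regions, gene lists and alternatives were chosen with earlier results of these data known. Named were the 20 strongest regions, the 6 on each side of the limit, the 6 largest differences in each direction among regions whose groups did not overlap, the 6 smallest and 6 largest spreads, the 4 shortest and 4 longest, genes with at least 2 strong regions, and leading regions of each gene list. Other genes were chosen after their values were seen. Alternatives changed scaling, overlap, threshold, peak summary, variance model, pairing and the libraries used. Biological process terms were not used here, and sequence motifs were not analysed here.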

Additional observations from a re-analysis of the deposited data

How the results depend on the processing

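The number of strong regions was 899 at a limit of 15 and 239 at a limit of 30, 526 with the mean of the peaks in a region, 528 with a stricter overlap, 539 with a rank within each list (511 of them strong regions) and 546 to 592 with a liver left out. The share of genes annotated poly(A) RNA binding was 21.8% at a limit of 15, 31.4% at 30, 26.5% by rank and 26.1% to 27.0% with a liver left out, all chosen after seeing the data. For fold enrichment, no region passed in any alternative except 2 without HFD 3, in Slc17a4 and Huwe1 and not strong, so the range with a liver left out was 0 to 2 of all regions and 0 to 0 of strong ones. For covered length, 5 to 14 regions passed with a liver left out (0 to 3 strong), 1 with only peaks at or above the median of their list, and 0 with the replicate block. The labels number the livers of both groups alike, but same-numbered livers did not deviate together (correlations of -0.04, 0.02 and -0.22). These correlations cannot show whether animals were paired, and the replicate block was kept as an alternative only. With it 0 regions passed for fold enrichment, and 248 had an unadjusted p under 0.05, of which 11 were strong. The 12 named differences kept their direction in 156 of 156 alternative fits, with a lowest limma adjusted p of 0.36. They had been chosen as the largest differences among regions whose groups did not overlap. Their direction could hardly turn, so nothing is read from this count. Depth limits which regions reach a peak, and 3 mice a group limit what the test can call.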

Other observations

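Strong regions in genes of the endoplasmic reticulum are described by counts alone and were chosen after their values were seen. The compartment as a whole was annotated in 34 genes with a strong region (8.27%) and 226 other genes (6.98%), which is close to the background. The pathway of protein processing in this compartment was annotated in 12 genes with a strong region (2.92%) and 43 other genes (1.33%). Sec62, a subunit of the protein translocation machinery, had 73.4, 87.2 and 90.9 in HFD livers and 80.1, 87.4 and 94.2 in WT livers at its highest region, and its other strong regions had geometric means of 81.9 and 33.9. Sec63, its partner in translocation, had 42.0, 52.2 and 57.3 in HFD livers and 41.4, 36.7 and 35.6 in WT livers. As deposited these groups stood apart, but they overlapped after the median of each library had been taken off. Rrbp1, the ribosome-binding protein of the rough endoplasmic reticulum, had 66.4, 80.7 and 68.2 in HFD livers and 64.8, 70.2 and 72.6 in WT livers at its higher region. The chaperone Calr had a geometric mean of 54.6, and the protein disulfide isomerase Pdia4 had 34.6 and 27.4. Of these genes, Sec62 and Rrbp1 were the more even between livers at the regions given. By chromosome, the share of regions found in all 6 livers that were strong was lowest on chromosome 16 (4.18%) and highest on chromosome 6 (10.7%), leaving out Y with 0 of 2 regions.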
